A study of Mus musculus and Homo sapiens with 18 samples.

Results

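The genes described here encode the nuclear pore and the carriers that move proteins and RNAs through it: nucleoporins, importins, exportins and the small GTPase Ran with its regulators. They were chosen by symbol, as Nup, Ipo, Kpna, Kpnb or Tnpo followed by a number, Xpo followed by 1 character, and Ran, Rangap1, Ranbp1, Ranbp2, Ranbp3, Rcc1, Nutf2, Cse1l and Tpr, with pseudogene and antisense entries left out. The rule found 50 genes of 46882 in the lens count table, 51 of 54838 in the neural stem cell-derived lens progenitor-like cell (NLPC) table and 53 of 60880 in the HLE-B3 table, which make 53 different symbols. After the filter on low counts, 49, 50 and 52 of them were tested. The member left untested in each table was Kpna7, which had 0 counts in every lens library. *Nup62* and *Kpna5* were not analysed in the lens and *Kpna5* was not analysed in NLPCs. *Nup58* in the lens table and *Nup42* in all 3 tables carry older symbols that fall outside the rule.

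RNA was sequenced from 18 libraries, 3 per group, to ask what loss of Qki changes in lens cells. Qki, encoded by *Qk* in mouse and *QKI* in human, is an RNA-binding protein. The lens groups were Ctrl mice (Nestin-CreERT2; QkL/+, so that the controls also carried the Cre and 1 floxed allele) and *Qk*-iCKO mice (Nestin-CreERT2; QkL/L). Both were on a C57BL/6 background, received tamoxifen at postnatal days 7 and 8, and gave lenses at postnatal days 17 to 19. The Cre is driven by Nestin, so recombination could reach only the Nestin lineage, while the RNA came from the whole lens. NLPCs were made from neural stem cells of newborn (P1) Nestin-CreERT2; QkL/L brains, with Noggin for 6 days and then bFGF, BMP4 and BMP7 for 12 days. Their groups were WT and *Qk*-/-, the latter made with 100 nM 4-hydroxytamoxifen in culture. HLE-B3 is a human lens epithelial cell line, compared as WT and *QKI* KO, where the knockout was made by CRISPR and drug selection and was not stated to be 1 clone. Nothing in the labels says that NLPC or HLE-B3 libraries came from separate derivations, so the p-values there measure the spread between libraries, which may be technical.

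As background, the nuclear pore is a ring of nucleoporins. The Y complex and inner ring form its scaffold, FG-repeat nucleoporins fill its channel, and filaments and a basket extend into cytoplasm and nucleus. Carriers of the importin beta family bind cargo and pass the channel. Importin beta 1 (*Kpnb1*) carries proteins with a classical nuclear localization signal through an adaptor, importin alpha (*Kpna* genes). Ran bound to GTP, made in the nucleus by *Rcc1*, releases import cargo and loads exportins, and *Rangap1* in the cytoplasm turns it back to Ran-GDP. In the lens, fibre cells degrade their nuclei as they mature.

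Promoter sequences are shown for the 3 members whose changes the results turn on: *Ipo5*, the member called lower in all 3 systems, *Kpnb1*, called lower in both mouse systems (in NLPCs not with a replicate block) and higher in HLE-B3, and *Ipo8*, with the largest change in the lens. They are RefSeq windows of GRCm38.p6, from 250 bases before to 50 bases after the annotated start, read 5′ to 3′ on the gene's strand. The *Ipo5* window lies at chr14:120910944-120911243 (plus strand), the *Kpnb1* window at chr11:97187843-97188142 (minus strand) and the *Ipo8* window at chr6:148831418-148831717 (minus strand). The genes themselves span chr14:120911224-120947999 (*Ipo5*), chr11:97159714-97187881 (*Kpnb1*) and chr6:148770683-148831467 (*Ipo8*) in the GENCODE annotation of that build, so each window covers the promoter and the start of the first exon. Capitals mark CCAAT (the CCAAT box) and GGGCGG (the GC box) in either orientation.
Ipo5: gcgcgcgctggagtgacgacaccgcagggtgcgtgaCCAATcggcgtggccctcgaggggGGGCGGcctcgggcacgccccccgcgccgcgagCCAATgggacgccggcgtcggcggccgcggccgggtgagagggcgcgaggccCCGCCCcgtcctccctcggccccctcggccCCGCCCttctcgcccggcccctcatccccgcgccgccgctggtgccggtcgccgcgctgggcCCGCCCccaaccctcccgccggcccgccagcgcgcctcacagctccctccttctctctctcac
Kpnb1: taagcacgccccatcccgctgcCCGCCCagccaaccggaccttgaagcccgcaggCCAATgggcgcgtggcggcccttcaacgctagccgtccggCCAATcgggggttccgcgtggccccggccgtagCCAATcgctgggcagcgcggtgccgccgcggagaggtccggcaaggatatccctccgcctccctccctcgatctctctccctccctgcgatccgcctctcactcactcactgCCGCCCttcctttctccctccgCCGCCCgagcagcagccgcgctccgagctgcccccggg
Ipo8: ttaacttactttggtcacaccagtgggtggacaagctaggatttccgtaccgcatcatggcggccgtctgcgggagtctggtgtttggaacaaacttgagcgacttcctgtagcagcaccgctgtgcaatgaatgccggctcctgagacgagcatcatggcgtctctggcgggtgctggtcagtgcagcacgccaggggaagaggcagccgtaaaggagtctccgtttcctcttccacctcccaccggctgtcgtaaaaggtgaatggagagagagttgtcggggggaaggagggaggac
The *Ipo5* window held 2 CCAAT and 4 GC box matches, the *Kpnb1* window 3 and 3, and the *Ipo8* window 0 and 0. Over the 49 windows of the 41 mouse members that could be matched, 49.0% held CCAAT, against 37.4% of all 32851 windows, and 65.3% held a GC box, against 35.7%. The core of the NRF1 site, CGCATGCG (its own reverse complement), was in 5 of the 49 windows (10.2%, against 1.87% of all), those of *Nup107*, *Nup50*, *Nup62*, *Ran* and *Xpo5*. A match of letters does not show that a factor binds. No window was matched for *Cse1l*, *Kpna1*, *Kpna3*, *Kpna6*, *Nup35*, *Nup43*, *Nup85*, *Ranbp3*, *Xpo4* and *Xpo7*.

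Total counts were 10319320 to 16425331 in the lens, 28154202 to 68243360 in NLPCs and 69190864 to 81384471 in HLE-B3. Values below are CPM, the counts of a gene relative to the library total after TMM scaling, which corrects library composition. Counts of *Qk* over the whole gene, most of which lies outside the floxed exon 2, were 116 to 127 CPM in Ctrl and 86.7 to 106 CPM in *Qk*-iCKO lenses. They were higher in the NLPC libraries labelled *Qk*-/- (3083 to 3593 CPM) than in WT (2440 to 2670 CPM), a direction opposite to that in the lens. Reads outside exon 2 are not removed by the deletion, so these counts do not by themselves check the mouse labels. *QKI* fell from 257 to 263 CPM in WT to 100.2 to 105 CPM in *QKI* KO HLE-B3. The library *Qk*-iCKO 1 stood apart (TMM factor 1.47, against 0.89 to 0.96 in the other lens libraries, and mean correlation with the others 0.892, against 0.921 to 0.934), as did *Qk*-/- 2 among NLPCs (0.949, against 0.976 to 0.980). In the lens, 9 of 9 tested macrophage and leukocyte markers were higher in *Qk*-iCKO, their sum rising from 2.65 to 4.86 CPM to 166 to 222 CPM. The summed lens markers were 203331 to 223848 CPM in Ctrl and 113106 to 183146 CPM in *Qk*-iCKO. Of the 11 tested lens markers, 1 passed edgeR's test (lower), 3 were lower at unadjusted p below 0.05 and 10 had a log2 fold change below 0. In NLPCs, the lens markers *Cryaa*, *Mip* and *Foxe3* were at or near 0, while the 12 listed lens markers summed to 222 to 231 CPM in WT and 217 to 272 CPM in *Qk*-/-. Neural stem and astrocyte markers summed to 6119 to 6738 CPM in WT and 4267 to 4850 CPM in *Qk*-/-. *CRYAA* was at 0 in every HLE-B3 library, while the listed lens markers summed to 625 to 733 CPM in WT and 1003 to 1155 CPM in *QKI* KO. The sum went against most of the genes in it. Of the 6 tested, 3 were called lower and 1 higher, and 4 had a log2 fold change below 0 (median -0.60).

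In *Qk*-iCKO lenses, 8 of the 23 tested nuclear transport receptors and adaptors fell and 0 rose. Adjusted p (edgeR's quasi-likelihood test, Benjamini-Hochberg over all genes tested) was below 0.05 for 8 of the 49 tested members, and the 8 genes, *Ipo8*, *Ipo5*, *Kpna1*, *Kpnb1*, *Kpna3*, *Kpna4*, *Cse1l* and *Tnpo3*, were all lower and all carriers or their adaptors. Of all genes tested, 3.88% were called lower. No member was called higher (8.38% of all genes were), and 0 were higher by DESeq2. At unadjusted p below 0.05, 4 members were higher and 17 lower, against 17.3% and 11.4% of all genes. The log2 fold change was below 0 for 39 of 49 members (49.3% of all genes), with a median of -0.25 against 0.0064 over all genes. In each *Qk*-iCKO library, 36 to 41 of the 49 members lay below the Ctrl mean, with medians of -0.30, -0.31 and -0.21 on the log2 scale. Every *Qk*-iCKO library was below every Ctrl library for 21 of the 49 members and above for 4. Over all genes these shares were 17.1% and 18.2%, so groups without overlap were common. In bulk RNA, fewer cells that express a gene and less RNA per cell cannot be told apart. The macrophage markers and the sum of lens markers given above moved with the same groups. Iris and ciliary pigment markers summed to 3.49 to 6.90 CPM in Ctrl and 6.85 to 136 CPM in *Qk*-iCKO, with the high value in *Qk*-iCKO 1 (0 of 3 tested passed edgeR's test, with 3 higher at unadjusted p below 0.05). Retina markers summed to 1.99 to 563 CPM in Ctrl, with the high value in Ctrl 2, and to 14.5 to 84.5 CPM in *Qk*-iCKO. The part of these cell types in the members' values was not tested.

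Among the import carriers of the importin beta family, all 11 had a log2 fold change below 0 and 4 passed the test. *Ipo8*, a relative of *Ipo7* that imports Argonaute proteins among others, was at 102, 106 and 111 CPM in the Ctrl lenses and at 33.9, 34.6 and 31.4 CPM in the *Qk*-iCKO lenses (log2 fold change -1.67 ± 0.13 (SE), adjusted p = 6.10e-04). The 2 groups were far apart and each was tight. *Ipo5*, which imports ribosomal proteins and histones, was at 392, 409 and 444 CPM in Ctrl and 188, 209 and 229 CPM in *Qk*-iCKO (log2 fold change -0.99 ± 0.16 (SE), adjusted p = 0.00855). Per length it was the most abundant member in Ctrl lenses, as given below. *Kpnb1* was at 255, 227 and 267 CPM and 115, 138 and 144 CPM (log2 fold change -0.91 ± 0.16 (SE), adjusted p = 0.0118), again without overlap. *Tnpo3*, the carrier of serine- and arginine-rich splicing factors, showed the smallest fall of the 4, from 38.2, 39.6 and 42.7 CPM to 26.4, 27.4 and 31.2 CPM (log2 fold change -0.50 ± 0.13 (SE), adjusted p = 0.0493). *Ipo9*, a histone carrier, did not pass the test at 43.3, 45.7 and 44.0 CPM and 27.7, 35.5 and 30.4 CPM, although its groups did not overlap (adjusted p = 0.0576). *Tnpo1*, the carrier of hnRNP A1, was at 53.9, 60.1 and 50.8 CPM and 55.8, 46.2 and 49.8 CPM, and these ranges overlapped.

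All 5 tested importin alpha genes lay below 0, and 3 passed. *Kpna4* was at 111, 113 and 119.8 CPM in Ctrl and 44.5, 66.7 and 69.1 CPM in *Qk*-iCKO (log2 fold change -0.93 ± 0.19 (SE), adjusted p = 0.0212), with *Qk*-iCKO 1 the lowest. Before scaling, the *Qk*-iCKO libraries held 726, 690 and 686 counts of it, at totals of 11072533, 11273813 and 10319320. The lower value in *Qk*-iCKO 1 thus rests on its TMM factor of 1.47. *Kpna1* was at 69.0, 69.5 and 71.5 CPM and 34.8, 37.5 and 44.2 CPM (log2 fold change -0.85 ± 0.14 (SE), adjusted p = 0.00963). *Kpna3* was at 58.9, 66.1 and 70.8 CPM and 37.9, 40.0 and 42.7 CPM (log2 fold change -0.70 ± 0.14 (SE), adjusted p = 0.0174). For each of these 3, every *Qk*-iCKO library was below every Ctrl library. *Kpna2* was nearly silent, at 0.0827, 1.21 and 0.959 CPM in Ctrl and 0.796, 0.386 and 1.11 CPM in *Qk*-iCKO, so that its log2 fold change (-0.0050) carries a standard error of 0.71. *Cse1l*, the exportin that returns importin alpha to the cytoplasm, was at 25.7, 26.0 and 27.5 CPM and 16.0, 18.3 and 18.7 CPM (log2 fold change -0.58 ± 0.13 (SE), adjusted p = 0.0298). Genes for importin alpha, for its partner importin beta 1 and for its exportin were thus lower in the same lenses.

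Of the other exportins, *Xpo1*, the general exportin for leucine-rich export signals, was at 39.9, 41.9 and 41.2 CPM in Ctrl and 28.7, 27.5 and 33.3 CPM in *Qk*-iCKO (adjusted p = 0.0637), without overlap but short of the threshold. *Xpot*, the tRNA exportin, went the other way, with 21.2, 21.4 and 22.4 CPM and 26.3, 28.2 and 30.9 CPM (adjusted p = 0.0949). In the Ran cycle no gene passed (0 of 6, with 2 lower at unadjusted p below 0.05 and 1, *Ranbp1*, lower by DESeq2), and all 6 log2 fold changes were below 0. *Ran* was at 129.8, 140.2 and 157 CPM and 83.1, 131 and 132 CPM, with the low value in *Qk*-iCKO 1. Before scaling, the *Qk*-iCKO libraries held 1357, 1360 and 1308 counts of *Ran*, so that low value rests on the TMM factor of *Qk*-iCKO 1 (1.47). *Ranbp1*, a cofactor of GTP hydrolysis by Ran, was at 44.6, 52.5 and 51.4 CPM and 18.9, 34.3 and 35.4 CPM (log2 fold change -0.75, adjusted p = 0.0915). With the replicate number as a block it passed (adjusted p = 0.0277). *Nutf2*, which brings Ran-GDP back into the nucleus, was at 3.89, 3.06 and 3.01 CPM and 1.90, 2.13 and 2.02 CPM (adjusted p = 0.103). *Rangap1*, *Ranbp3* and *Rcc1* had log2 fold changes of -0.30, -0.37 and -0.0011, none past the test.

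For the pore itself, 0 of the 20 nucleoporin genes passed edgeR's test in the lens, and 1 (*Nup153*) was lower by DESeq2. At unadjusted p below 0.05, where 11.4% of all genes were lower and 17.3% higher, 2 of these 20 were lower and 3 higher. Their median log2 fold change was -0.12, against -0.46 over the 23 tested receptors, of which 22 were below 0, and the difference between these classes was not tested. *Nup153*, a nuclear basket protein, was at 28.0, 30.5 and 34.0 CPM in Ctrl and 19.1, 18.3 and 24.4 CPM in *Qk*-iCKO (adjusted p = 0.0586, or 0.0320 with the replicate block). *Nup107* of the Y complex was at 2.98, 2.85 and 3.08 CPM and 3.92, 4.06 and 5.44 CPM, higher in every *Qk*-iCKO library (adjusted p = 0.136). *Nup93* of the inner ring was at 8.35, 8.96 and 7.60 CPM and 15.4, 10.6 and 10.2 CPM (adjusted p = 0.121). *Nup98*, an FG-repeat nucleoporin, was at 13.0, 13.9 and 14.0 CPM and 17.2, 16.5 and 18.3 CPM (adjusted p = 0.124). Y complex genes were below 0 in 2 of 6, inner ring genes in 3 of 5 and basket genes in 3 of 3.

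The lens count depends on the controls. It was 2 without Ctrl 1, 4 without Ctrl 2 and 2 without Ctrl 3, and 7 to 9 when a *Qk*-iCKO library was left out (8 without *Qk*-iCKO 1, which shared 7 of the calls), and *Ipo8* alone passed in all 6 of these fits. Lower calls over all genes moved alike, from 473 in the main fit to 144, 165 and 160 without Ctrl 1, 2 and 3. They numbered 363 to 479 when a *Qk*-iCKO library was left out. With libraries scaled by total counts alone, the median over all genes moved to 0.29, that of the members to 0.027 and that of the nucleoporins to 0.14, so their direction turned while the members stayed below the other genes. At that scaling 3 members (*Ipo8*, *Ipo5* and *Kpna4*) were called lower, with 118 lower calls over all genes.

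**Figure D1:**
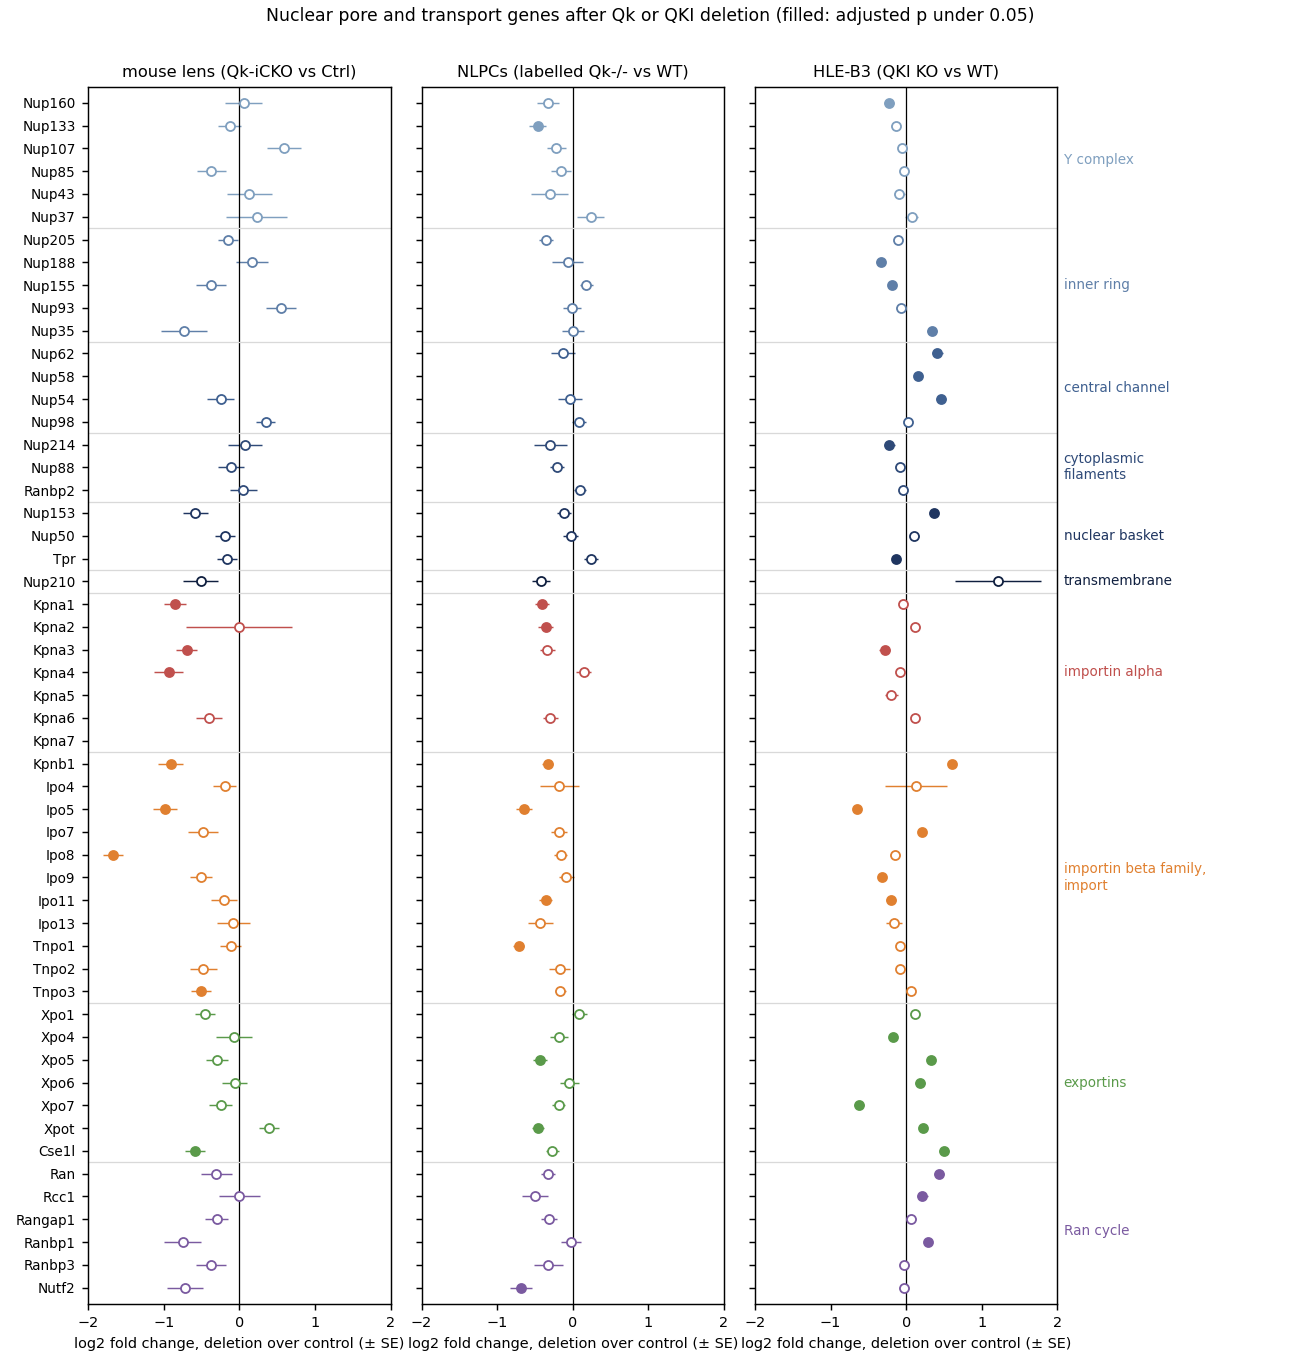
Log2 fold change (deletion over control, horizontal axis, bars ± SE) of every tested member in the lens, NLPCs and HLE-B3, 3 libraries against 3, with genes grouped by role down the vertical axis and filled points for adjusted p below 0.05. Filled points lie on the left for 8 genes in the lens and 10 in NLPCs, and on both sides in HLE-B3, with 11 on the left and 14 on the right.

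In the NLPC libraries labelled *Qk*-/-, carriers were again lower, with *Tnpo1* in front. Adjusted p was below 0.05 for 10 of 50 members, all lower: *Tnpo1*, *Ipo5*, *Xpot*, *Xpo5*, *Nutf2*, *Kpna1*, *Kpnb1*, *Nup133*, *Ipo11* and *Kpna2*. Of all genes, 5.96% were called lower and 4.74% higher. No member was called higher (1 at unadjusted p below 0.05, *Tpr*, against 12.4% of all genes, and 0 by DESeq2). The log2 fold change was below 0 for 42 of 50 members (46.8% of all genes), with a median of -0.20 against 0.040 over all genes. The *Qk* counts, higher in *Qk*-/- than in WT, do not by themselves check the labels of these libraries, and every NLPC direction given here is that of the libraries as labelled. Proliferation markers moved in the same libraries: 5 of 17 were called lower and 16 of 17 lay below 0, with sums of 1251 to 1404 CPM in WT and 1024 to 1090 CPM in *Qk*-/-, and their part in these values was not tested.

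*Tnpo1* was at 398, 376 and 388 CPM in WT and 245, 227 and 235 CPM in *Qk*-/- (log2 fold change -0.72 ± 0.076 (SE), adjusted p = 0.00121), the change of smallest p among the members. *Ipo5* was at 102, 109 and 108 CPM and 72.0, 59.3 and 72.4 CPM (log2 fold change -0.64 ± 0.10 (SE), adjusted p = 0.00708). *Kpnb1*, the most abundant member per length, was at 436, 459 and 464 CPM and 370.2, 347 and 362 CPM (log2 fold change -0.33 ± 0.077 (SE), adjusted p = 0.0301). None of the 3 overlapped between groups. Every *Qk*-/- library was below every WT library for 25 of the 50 members and above for 2, against 19.3% and 15.9% of all genes. All 11 import carriers of the importin beta family were below 0, as in the lens. *Ipo11* was at 55.0, 57.2 and 57.7 CPM and 42.0, 44.5 and 46.0 CPM (log2 fold change -0.36 ± 0.089 (SE), adjusted p = 0.0403). *Ipo8*, which had the largest change in the lens, was at 81.4, 77.7 and 79.6 CPM and 75.1, 64.6 and 73.4 CPM here and did not pass (adjusted p = 0.294). *Ipo9*, *Ipo4* and *Ipo7* overlapped between groups, with log2 fold changes of -0.084, -0.18 and -0.19.

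The NLPC exportins called lower were those of small RNAs. *Xpot* was at 136, 139 and 142 CPM in WT and 104, 96.0 and 102 CPM in *Qk*-/- (log2 fold change -0.47 ± 0.078 (SE), adjusted p = 0.00892). *Xpo5*, which exports microRNA precursors, was at 94.6, 102 and 96.6 CPM and 71.5, 66.2 and 78.7 CPM (log2 fold change -0.44 ± 0.094 (SE), adjusted p = 0.0245). *Cse1l* was at 80.0, 88.1 and 90.2 CPM and 71.9, 69.8 and 72.4 CPM (adjusted p = 0.0882), and *Xpo1* at 157, 154 and 153 CPM and 164, 184 and 144 CPM with overlapping groups. Of the importin alpha genes, *Kpna1* was at 63.1, 70.1 and 65.2 CPM and 51.5, 51.0 and 46.4 CPM (log2 fold change -0.41 ± 0.093 (SE), adjusted p = 0.0286). *Kpna2*, the member of the family most often tied to dividing cells, was at 98.3, 117 and 117 CPM and 84.4, 86.3 and 87.8 CPM, just past the threshold (log2 fold change -0.36 ± 0.10 (SE), adjusted p = 0.0498). *Kpna4* was at 142, 124 and 126 CPM and 158, 129.7 and 145 CPM and its groups overlapped.

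In the Ran cycle *Nutf2* passed, at 21.1, 23.9 and 21.8 CPM in WT and 15.7, 11.2 and 14.6 CPM in *Qk*-/- (log2 fold change -0.69 ± 0.15 (SE), adjusted p = 0.0257). *Ran* was at 102, 122 and 115 CPM and 89.1, 90.0 and 89.6 CPM, without overlap (adjusted p = 0.0555). *Rcc1*, the exchange factor that loads Ran with GTP, was at 8.93, 8.49 and 11.5 CPM and 6.36, 7.20 and 7.02 CPM (adjusted p = 0.111), and *Rangap1* at 69.2, 86.3 and 74.7 CPM and 61.6, 57.8 and 65.1 CPM (adjusted p = 0.106). *Ranbp1* and *Ranbp3* overlapped, with log2 fold changes of -0.026 and -0.33. Of the 21 nucleoporins, 1 passed: *Nup133* of the Y complex, at 53.4, 55.2 and 51.1 CPM and 41.4, 33.2 and 40.9 CPM (log2 fold change -0.47 ± 0.11 (SE), adjusted p = 0.0379). *Tpr*, the scaffold of the nuclear basket, was higher in every *Qk*-/- library, at 617, 609 and 602 CPM and 678, 797 and 675 CPM, and did not pass (adjusted p = 0.150).

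With the replicate number as a block, the NLPC count was 6 in place of 10, and *Kpnb1*, *Nup133*, *Ipo11* and *Kpna2* then had adjusted p of 0.0520 to 0.0648. The count was also 2, 3 and 1 without WT 1, 2 and 3, and 3, 14 and 4 without *Qk*-/- 1, 2 and 3. Lower calls over all genes moved alike, with 1214 in the main fit and 1040 with the block. They were 404, 466 and 337 without WT 1, 2 and 3, and 471, 2069 and 827 without *Qk*-/- 1, 2 and 3. The library that stood apart (*Qk*-/- 2) thus lowered the calls of members and of all genes. *Tnpo1* alone passed in every one of the fits that left out a library.

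**Figure D2:**
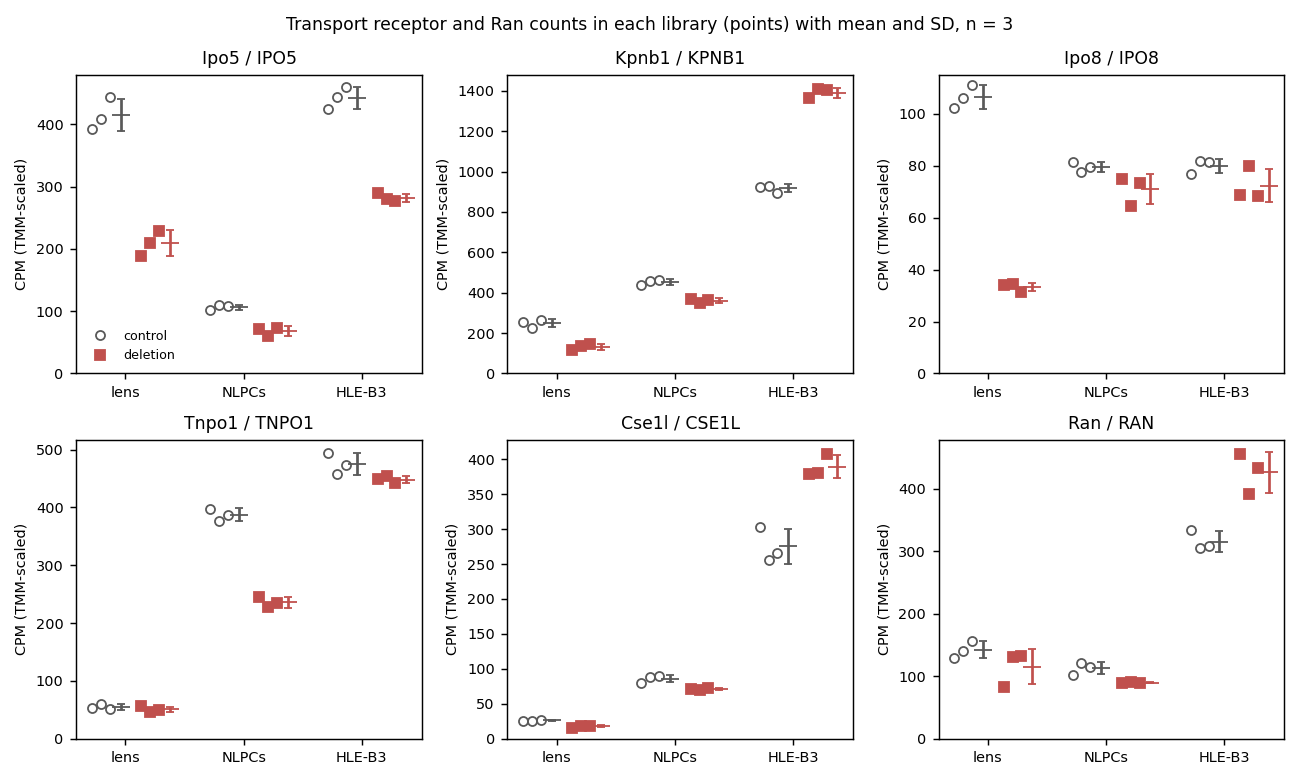
CPM after TMM scaling (vertical axes, from 0) of 6 members in each library of the lens, NLPCs and HLE-B3, with open circles for control and filled squares for deletion libraries and bars for mean ± SD, n = 3. *Ipo5* was lower after deletion in all 3 systems, *Kpnb1* and *Cse1l* were lower in the lens and higher in HLE-B3, and *Ipo8* separated its groups most in the lens.

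In *QKI* KO HLE-B3 cells, members moved both ways. Of 52 tested, 11 (21.2%) were called lower and 14 (26.9%) higher, against 16.3% lower and 17% higher over all genes. With libraries scaled by total counts alone the split was 16 lower and 11 higher. The median log2 fold change was -0.031, against -0.020 over all genes. *KPNB1* was at 926, 931 and 896 CPM in WT and 1364, 1408 and 1403 CPM in *QKI* KO (log2 fold change 0.60 ± 0.045 (SE), adjusted p = 3.00e-08), opposite to both mouse systems as labelled. *IPO5* was at 424, 443 and 459 CPM and 289, 280.0 and 276 CPM (log2 fold change -0.65 ± 0.052 (SE), adjusted p = 7.41e-08), the same direction as in the mouse. *CSE1L* was at 303, 256 and 266 CPM and 379, 380.2 and 408 CPM (log2 fold change 0.50 ± 0.064 (SE), adjusted p = 1.24e-05). *XPO7*, an exportin, was at 95.6, 113 and 104 CPM and 66.7, 68.3 and 68.2 CPM (log2 fold change -0.62 ± 0.067 (SE), adjusted p = 1.98e-06). No group overlapped in these 4 genes. Every *QKI* KO library was below every WT library for 16 of the 52 members and above for 19, against 22.6% and 22% of all genes.

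The genes called higher in HLE-B3, which were 17% of all genes tested, included 3 of the 6 Ran cycle genes. *RAN* was at 334, 304 and 308 CPM in WT and 455, 391 and 434 CPM in *QKI* KO (log2 fold change 0.44 ± 0.062 (SE), adjusted p = 3.71e-05). Reads of *RAN* can be shared with processed copies, of which *RANP1* went from 5.10 to 7.34 CPM. *RANBP1* was at 370.0, 362 and 359 CPM and 448, 429 and 453 CPM (log2 fold change 0.29 ± 0.050 (SE), adjusted p = 2.70e-04). *RCC1* was at 51.3, 51.1 and 43.8 CPM and 59.7, 53.7 and 56.3 CPM (log2 fold change 0.22 ± 0.075 (SE), adjusted p = 0.0358). Exportins were called higher in 4 of 7: beside *CSE1L* they were *XPO5* (log2 fold change 0.33), *XPOT* (0.23) and *XPO6*, the actin exportin (0.18). *IPO7* was also higher, at 459, 410.2 and 444 CPM and 507, 502 and 505 CPM (log2 fold change 0.20 ± 0.053 (SE), adjusted p = 0.00657). Proliferation markers were called higher in 7 of 17 and lower in 0, with sums of 3884 to 3980 CPM in WT and 4209 to 4380 CPM in *QKI* KO. Of these 17, 6 had a log2 fold change below 0, and 3 were lower at unadjusted p below 0.05. The part of these markers in the members' values was not tested.

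Among the 22 HLE-B3 nucleoporins, 5 were called higher and 5 lower, not far from the 17% higher and 16.3% lower of all genes. The central channel genes *NUP54*, *NUP62* and *NUP58* were higher, *NUP54* going from 80.9, 73.3 and 78.7 CPM to 108, 100.2 and 112 CPM (log2 fold change 0.46 ± 0.064 (SE), adjusted p = 3.10e-05) and *NUP62* from 77.7, 85.9 and 76.9 CPM to 118, 101 and 101 CPM (log2 fold change 0.41 ± 0.072 (SE), adjusted p = 2.68e-04). *NUP58* was just past the threshold (log2 fold change 0.15, adjusted p = 0.0442) and passed in 2 of the 6 fits that left out a library. *NUP54*, *NUP62* and *NUP58* encode the trimer that lines the channel. *NUP98*, grouped with them here, was not called (log2 fold change 0.026, adjusted p = 0.766). *NUP153* rose from 318, 322 and 325 CPM to 428, 405 and 415 CPM (log2 fold change 0.37 ± 0.050 (SE), adjusted p = 2.08e-05), and *NUP35* from 42.4, 38.0 and 41.8 CPM to 52.0, 50.8 and 52.1 CPM (log2 fold change 0.34 ± 0.068 (SE), adjusted p = 8.13e-04). The lower ones were *NUP188* (-0.34 on the log2 scale), *NUP160* (-0.23), *NUP214* (-0.22), *NUP155* (-0.18) and *TPR* (-0.14). *NUP188* of the inner ring was at 102, 110.5 and 109 CPM and 85.2, 82.7 and 86.5 CPM (adjusted p = 2.73e-04). *NUP210* was barely expressed, at 0.0857, 0.425 and 0.905 CPM and 1.24, 0.926 and 1.11 CPM. Lower carriers were, beside *IPO5* and *XPO7*, *IPO9*, from 202, 209.6 and 211 CPM to 165, 167 and 168 CPM (adjusted p = 1.83e-04), *KPNA3* (log2 fold change -0.29), *XPO4* (-0.18) and *IPO11* (-0.20). *RANBP2*, whose reads can be shared with the RGPD copies, was at 636, 596 and 654 CPM and 621, 616 and 602 CPM with overlapping groups.

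Several of the HLE-B3 changes ran with those of neighbouring genes. The median log2 fold change of the 50 nearest tested genes on the same chromosome was -0.62 around *XPO7*, 0.48 around *KPNB1*, 0.54 around *NUP54*, -0.44 around *IPO5*, -0.49 around *KPNA3* and 0.28 around *NUP153*. It was near 0 around *RAN* (-0.029), *NUP35* (-0.011), *NUP62* (0.034), *IPO9* (-0.012) and *NUP188* (-0.016), and 0.13 around *CSE1L*. Chromosome copy number was not measured here, and its part in these values was not tested. The count of lower calls was 5 without WT 3, *QKI* KO 1 or *QKI* KO 3, where lower calls over all genes were 2644, 2509 and 2325 (3112 in the main fit). In each of those 3 fits, 16 genes kept their calls. These 16, *KPNB1*, *IPO5*, *XPO7*, *CSE1L* and *RAN* among them, passed in every fit that left out a library.

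**Figure D3:**
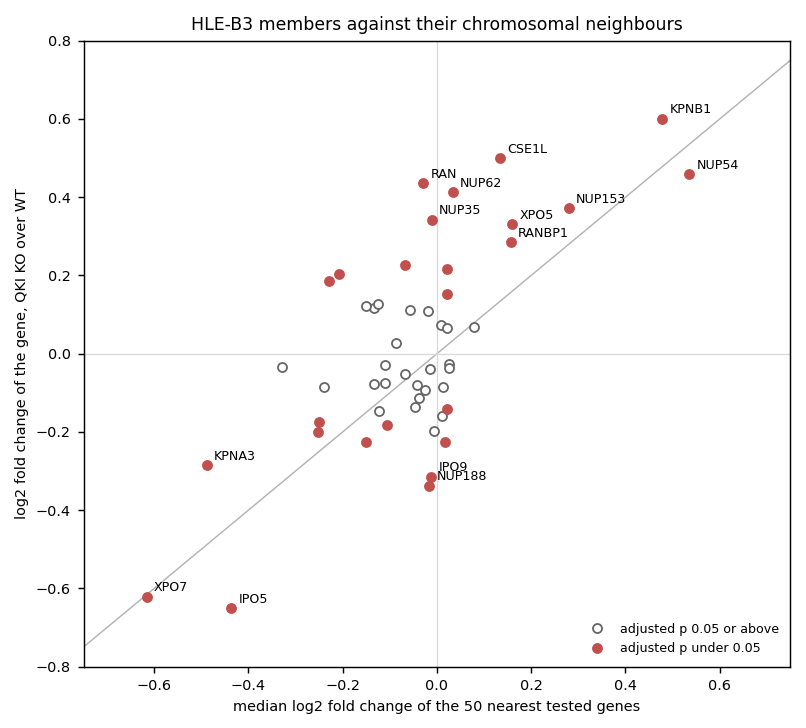
Log2 fold change of each tested HLE-B3 member (vertical axis) against the median log2 fold change of the 50 nearest tested genes on its chromosome (horizontal axis), with red points for adjusted p below 0.05, a diagonal line of equality, and *NUP210* left out for its low counts. *XPO7*, *KPNB1* and *NUP54* lie near the diagonal, while *RAN*, *CSE1L*, *NUP62* and *NUP35* lie above it with neighbours between -0.029 and 0.13.

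The 3 systems were set against each other by testing the difference of their log2 fold changes. Between the lens and NLPCs, 4 of 49 members differed (8.83% of all genes did), and 3 of the 8 genes called in the lens were among the 10 called in NLPCs (*Ipo5*, *Kpna1* and *Kpnb1*). The number that differed was 7 with at least 10 counts in every library, 7 without *Qk*-iCKO 3 and 14 by DESeq2. With the replicate block, 2 genes, *Ipo5* and *Kpna1*, were among the 6 called in NLPCs and also called in the lens, and *Kpnb1* was not (adjusted p = 0.0520 in NLPCs). *Ipo8* was lower in the lens by more (-1.67 against -0.16, difference NLPC minus lens 1.51 ± 0.15 (SE), adjusted p = 9.94e-05). *Kpna4* differed likewise (1.08 ± 0.22 (SE), adjusted p = 0.00964), while *Xpot* and *Tnpo1* were lower in NLPCs (-0.86 ± 0.14 (SE), adjusted p = 0.00315 for *Xpot*, and -0.60 ± 0.16 (SE), adjusted p = 0.0407 for *Tnpo1*).

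Between the lens and HLE-B3, 19 of 49 members (38.8%) differed, against 25.6% of all genes, and 7 did with libraries scaled by total counts alone. In 17 of the 19 the HLE-B3 value was the higher, as it was in 37.8% of all genes that differed. The difference (HLE-B3 minus lens) was 1.51 ± 0.16 (SE), adjusted p = 4.91e-05 for *KPNB1*. It was 1.08 ± 0.15 (SE), adjusted p = 2.77e-04 for *CSE1L*, 1.53 ± 0.13 (SE), adjusted p = 1.03e-05 for *IPO8* and 0.96 ± 0.17 (SE), adjusted p = 0.00144 for *NUP153*. Between NLPCs and HLE-B3, 20 of 50 (40%) differed, against 26.2% of all genes, again with 17 higher in HLE-B3, against 56.8% of all genes that differed. *KPNB1* differed by 0.94 ± 0.080 (SE), adjusted p = 6.73e-06, and *XPOT*, *XPO5*, *CSE1L* and *RAN* by 0.69, 0.77, 0.77 and 0.77 with adjusted p of at most 3.89e-04. *TPR*, *XPO7* and *NUP155* were instead lower in HLE-B3. *IPO5* was the 1 member called lower in every system, with NLPCs taken as labelled, and its log2 fold changes (-0.99 in the lens, -0.64 in NLPCs and -0.65 in HLE-B3) were not shown to differ: the difference was 0.35 ± 0.18 (SE), adjusted p = 0.258 for NLPC minus lens, 0.34 ± 0.14 (SE), adjusted p = 0.106 for HLE-B3 minus lens and -0.0084 ± 0.11 (SE), adjusted p = 0.992 for HLE-B3 minus NLPC. The HLE-B3 comparison joins 2 species and a tissue with a cell line, which cannot be told apart from the system itself.

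To compare levels between genes, CPM was divided by the merged exon length of each gene in kilobases (GENCODE, GRCm38 and GRCh37), a measure of level and not of change. In Ctrl lenses *Ipo5* (69.2 ± 4.36 CPM per kilobase, SD, n = 3) and *Ran* (53.8 ± 5.22) led, followed by *Kpnb1* (37.9 ± 3.11) and *Ranbp1* (29.7 ± 2.58), and in *Qk*-iCKO lenses *Ipo5* was at 34.8 ± 3.43 and *Ran* at 43.6 ± 10.6. In WT NLPCs the leading members were *Kpnb1* (68.8 ± 2.25), *Tpr* (58.1 ± 0.685), *Ran* (42.6 ± 3.70) and *Kpna2* (38.5 ± 3.71), the last 2 of which overlapped in range, with *Ran* above *Kpna2* in each library. In WT HLE-B3 they were *KPNB1* (89.0 ± 1.82), *RANBP1* (78.7 ± 1.24), *CSE1L* (72.4 ± 6.51), *KPNA2* (71.6 ± 2.32) and *RAN* (67.6 ± 3.47), where *CSE1L* and its 2 neighbours in the order lay within its spread. Summed over all members, the share of raw counts was 0.190 to 0.204% in Ctrl lenses, 0.136 to 0.195% in *Qk*-iCKO lenses, 0.457 to 0.515% in NLPCs and 1.07 to 1.12% in HLE-B3.

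The importin alpha isoforms, which differ in the cargoes they prefer, had a different make-up in each system on the same per-kilobase scale. In Ctrl lenses *Kpna3* (37.1% ± 1.20, SD, n = 3), *Kpna4* (31.4% ± 0.963) and *Kpna1* (20.2% ± 0.946) made up most of the family and *Kpna2* 0.624% ± 0.495. In WT NLPCs *Kpna2* was first at 37.5% ± 2.81, and in WT HLE-B3 *KPNA2* was first at 46.4% ± 0.949. After deletion these shares were 38.7% ± 1.43 for lens *Kpna3*, 35.1% ± 0.752 for NLPC *Kpna2* and 49.8% ± 2.04 for HLE-B3 *KPNA2*. The isoform with the highest mean share was the same before and after deletion in all 3 systems, while the summed CPM of the family went from 267 to 297 in Ctrl lenses to 144 to 180 in *Qk*-iCKO lenses. The share of *Kpna4* in *Qk*-iCKO lenses (27.5% ± 4.34) varied most, with its low value in *Qk*-iCKO 1.

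**Figure D4:**
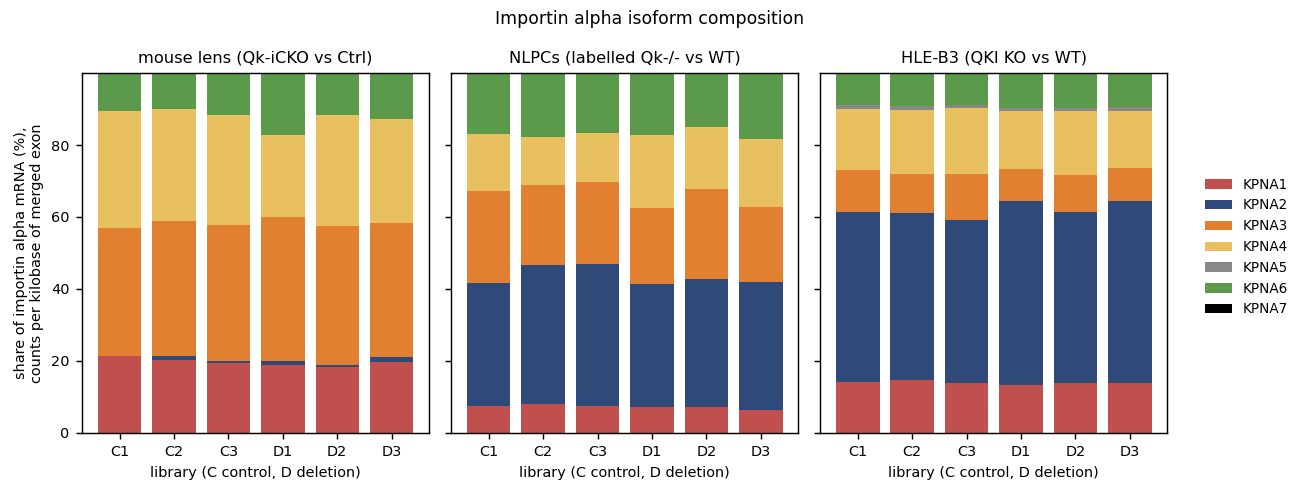
Share of each importin alpha isoform in the family's CPM per kilobase (vertical axis, percent) in each of 6 libraries per system, C1 to C3 control and D1 to D3 deletion. *Kpna3*, *Kpna4* and *Kpna1* fill most of each lens bar, where *Kpna2* takes the smallest share of the isoforms detected (on average 0.624% in Ctrl and 1.09% in *Qk*-iCKO), while *Kpna2* is the largest segment in NLPCs and HLE-B3.

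Other genes of the same machinery were taken from a list of 26 pore and transport genes outside the rule (further nucleoporins, Ran-binding proteins and mRNA export factors). Of all genes tested, 3.88% were called lower and 8.38% higher in the lens, and 5.96% and 4.74% in NLPCs. In HLE-B3 these shares were 16.3% and 17%. The lists were not tested as sets. In the lens 1 of 24 tested was called lower and none higher (2 higher at unadjusted p below 0.05): *Ranbp6*, a relative of *Ipo5*, fell to 6.27 CPM (log2 fold change -0.67, adjusted p = 0.0335). In NLPCs 2 of 25 were called lower, the mRNA export genes *Nxt2* (74.9 to 33.2 CPM) and *Ddx19a* (107 to 66.7 CPM), and 1 higher, *Nup210l* (3.20 to 6.22 CPM). In HLE-B3 2 of 24 were called lower and 10 higher, among them the nucleoporin *RAE1* (43.1 to 61.3 CPM) and *RANBP6* (36.0 to 51.0 CPM). SUMO cycle genes, which act with *Ranbp2* and *Rangap1* at the pore, gave 1 of 11 lower in the lens (*Sae1*, 34.7 to 22.8 CPM), 0 in NLPCs by edgeR (1, higher, at unadjusted p below 0.05) and 7 of 11 higher with 1 lower in HLE-B3. Of 14 lamina and nuclear envelope genes, 2 were called higher in the lens, *Lmna* (15.9 to 61.6 CPM) and *Sun2* (4.41 to 11.1 CPM), 1 lower in NLPCs (*Tmpo*, 137 to 100.0 CPM), and 5 higher in HLE-B3.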

How the data were processed

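Total RNA was sequenced as stranded, paired-end libraries. The authors aligned reads to mm10 or hg19 with STAR 2.6.1b and counted them per gene with HTSeq 0.11.0, and the deposited values are raw counts (the submitters' processing notes also name HISAT2 2.0.4 and featureCounts). Each table was analysed alone: genes were filtered with filterByExpr, scaled by TMM and tested with edgeR 4.0.16 in R 4.3.3 (quasi-likelihood, Benjamini-Hochberg over all genes tested, threshold 0.05), where the study used DESeq2. Differences between systems were tested as an interaction in joint fits. DESeq2 1.42.0, other scalings and filters, the replicate block and leaving out each library were alternatives. Steps were tested on simulated data with 200 changed genes. Changes of 1 on the log2 scale were called in 34.3% of such genes in the lens, 81.25% in NLPCs and 100% in HLE-B3. Differences of 1 between systems were called in 14.9% (lens and NLPCs), 26.9% (lens and HLE-B3) and 53.2% (NLPCs and HLE-B3). A gene not called in the lens, or not called as differing, may therefore still have changed. The main tests were unpaired. Samples with the same number correlated in their deviations in the lens (0.228, 0.115 and 0.516) and NLPCs (0.121, 0.243 and 0.179), so a fit with the replicate number as a block is given where it changes a call, although some samples with different numbers correlated as much (-0.389 to 0.267 in the lens and -0.218 to 0.144 in NLPCs). In HLE-B3 same-numbered samples did not. Genes were named by size, adjusted p, a difference between systems or a fixed list of central genes. The members and lists were chosen with earlier results of these data known. CPM precision rests on the depths given above.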

Additional observations from a re-analysis of the deposited data

Results flagged for a closer look

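Members are listed here because the effect of deletion differed between 2 systems at adjusted p below 0.05 in edgeR's joint fit, with values as differences of log2 fold changes and mouse and human orthologs under 1 symbol. The log2 fold change was higher in NLPCs than in the lens for 2 of the 4 members that differed, by 1.51 for *IPO8* and 1.08 for *KPNA4*. It was lower for 2, with differences of -0.60 for *TNPO1* and -0.86 for *XPOT*. The log2 fold change was higher in HLE-B3 than in the lens for 17 of the 19 members that differed, by 1.53 for *IPO8*, 1.51 for *KPNB1*, 1.10 for *NUP35*, 1.08 for *CSE1L*, 1.04 for *RANBP1*, 0.96 for *NUP153*, 0.86 for *KPNA4*, 0.81 for *KPNA1*, 0.74 for *RAN*, 0.71 for *NUP54*, 0.69 for *IPO7*, 0.69 for *NUTF2*, 0.62 for *XPO5*, 0.57 for *XPO1*, 0.57 for *TNPO3*, 0.52 for *KPNA6* and 0.42 for *KPNA3*. It was lower for 2, with differences of -0.63 for *NUP107* and -0.63 for *NUP93*. The log2 fold change was higher in HLE-B3 than in NLPCs for 17 of the 20 members that differed, by 0.94 for *KPNB1*, 0.77 for *CSE1L*, 0.77 for *RAN*, 0.77 for *XPO5*, 0.71 for *RCC1*, 0.69 for *XPOT*, 0.65 for *NUTF2*, 0.63 for *TNPO1*, 0.53 for *NUP62*, 0.49 for *NUP54*, 0.48 for *NUP153*, 0.48 for *KPNA2*, 0.41 for *KPNA6*, 0.39 for *IPO7*, 0.38 for *RANGAP1*, 0.37 for *KPNA1* and 0.23 for *TNPO3*. It was lower for 3, with differences of -0.36 for *NUP155*, -0.38 for *TPR* and -0.43 for *XPO7*.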

How the results depend on the processing

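With libraries scaled by total counts alone, 3 lens members and 5 NLPC members were called lower, the median log2 fold change of the members was 0.027 in the lens and -0.088 in HLE-B3, and 7 members differed between the lens and HLE-B3. With 1 library left out, lens members called lower numbered 2 to 9 (median -0.31 to -0.24), NLPC members 1 to 14 (median -0.30 to -0.17), and HLE-B3 members 5 to 10 (median -0.042 to -0.0029). Lower calls over all genes then numbered 144 to 479 in the lens, 337 to 2069 in NLPCs and 2325 to 2902 in HLE-B3. Members that differed numbered 3 to 7 between the lens and NLPCs, 13 to 20 between the lens and HLE-B3 and 15 to 25 between NLPCs and HLE-B3. With the replicate block, 10 lens and 6 NLPC members were called lower, and 8 HLE-B3 members lower and 12 higher, where same-numbered samples correlated at 0.086, 0.048 and -0.13. At unadjusted p below 0.05, 17 lens members were lower and 4 higher, and 19 NLPC members were lower and 1 higher. Over all genes, 11.4% were lower and 17.3% higher at that threshold in the lens, and 14% and 12.4% in NLPCs. Adding symbols with further letters gave 1 higher NLPC member, *Nup210l*. The HLE-B3 median less that of the neighbouring genes was 0.060. With at least 10 counts in every library 7 members differed between the lens and NLPCs, and 14 by DESeq2. The *Qk* difference of NLPCs was 0.39 and no longer passed with every gene of at least 1 count, and was 0.37 to 0.44 with 1 library left out. Directions turned for lens *Rcc1* (0.26 by total counts, 0.017 with at least 10 counts, and -0.18 to 0.083 with 1 library left out), lens *Kpna2* (0.29 by total counts, 0.18 with the block, and -0.51 to 0.48), NLPC *Ranbp1* (0.028 by total counts, 0.020 with at least 10 counts, up to 0.038), NLPC *Xpo1* (-3.2e-05 to 0.15, the former without *Qk*-/- 2), HLE-B3 *RANBP3* (-0.059 to 0.019) and *NUTF2* (-0.082 to 0.040). Over the 64 single log2 fold changes, 629 alternatives kept direction and side of the threshold, 122 lost and 11 gained a call and 20 turned direction. The cause was not tested. The lens libraries are the shallowest, which limits low members such as *Kpna2* and *Rcc1* most.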
